A study of Homo sapiens with 16 samples.

Results

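The genes that give epithelial and mesenchymal cells their identity were read across 4 human breast cell lines and the arms of a RECK perturbation. The list names 45 genes, picked by name for their roles in epithelial or mesenchymal cells, and 42 of them had at least 1 probe set that carries a single gene symbol, of 11963 genes measured in this way. KRT17, KRT81 and ESRP2 were not analysed here. Of the 42, 29 belong to the epithelial side, as keratins, junction genes, desmosome genes and surface or protease genes, and 13 to the mesenchymal side, as cadherins, matrix, transcription factors and fibroblast genes.

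MDAMB231 is a breast cancer line, and LM24175 is a derivative of it selected for growth in the lung. The labels call both invasive, and they were stably infected with a construct that expresses RECK constitutively or with an empty vector (EV). The poorly invasive lines, Hs343T and Hs606T, were transfected with an siRNA aimed at RECK (siRECK) or with a scramble siRNA (siSCR). RECK is a membrane-anchored inhibitor of matrix metalloproteinases, and each of the 8 groups had 2 Affymetrix U133 2.0 arrays.

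Epithelial cells hold to each other through E-cadherin, tight junctions and desmosomes, and carry keratin filaments inside. In the epithelial to mesenchymal transition, transcription factors of the SNAI, ZEB and TWIST families lower these genes, and N-cadherin, vimentin and fibronectin come up in their place. Fibroblasts have the mesenchymal set without having been epithelial, and add receptors and surface proteins of their own such as PDGFRA, THY1 and FAP.

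SNAI and ZEB proteins bind a short DNA motif, the E-box CAGGTG, read as CACCTG on the other strand. RefSeq (GRCh38.p14) windows of 250 bases before a start were at hand for 23 of the members, and 13 of these had the letters CAGGTG or CACCTG in at least 1 window. The motif stood in windows of 12 of 16 epithelial members and of 1 of 7 mesenchymal members, ZEB1, beside 20.6% of the 27305 genes of the table. Counted by window, 51.9% of 27 epithelial windows, 12.5% of 16 mesenchymal windows and 17.5% of all 35116 windows held it. Some genes have several overlapping windows, and a match of letters is a description and not a binding site. The windows of 4 members are printed, 5′ to 3′ on the gene's strand with each match in capitals. They show the window with the most matches among the members (CLDN7, 4), the tight junction gene that differed in LM24175 with the RECK construct (OCLN), and a pair of desmosome genes with 2 matches each that went opposite ways between the kinds of line (DSG2 and DSP).
CLDN7 (chr17:7262479-7262728, minus strand): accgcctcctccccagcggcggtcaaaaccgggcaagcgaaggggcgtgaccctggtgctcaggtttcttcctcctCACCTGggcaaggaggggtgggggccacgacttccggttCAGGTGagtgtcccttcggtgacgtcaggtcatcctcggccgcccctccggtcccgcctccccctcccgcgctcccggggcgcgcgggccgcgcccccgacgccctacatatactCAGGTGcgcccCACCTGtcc
OCLN (chr5:69492297-69492546, plus strand): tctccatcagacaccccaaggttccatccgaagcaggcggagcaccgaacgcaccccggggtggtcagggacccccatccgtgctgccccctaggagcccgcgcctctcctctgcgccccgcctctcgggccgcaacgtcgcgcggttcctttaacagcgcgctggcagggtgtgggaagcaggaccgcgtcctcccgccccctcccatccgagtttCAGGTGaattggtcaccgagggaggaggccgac
DSG2 (chr18:31497927-31498176, plus strand): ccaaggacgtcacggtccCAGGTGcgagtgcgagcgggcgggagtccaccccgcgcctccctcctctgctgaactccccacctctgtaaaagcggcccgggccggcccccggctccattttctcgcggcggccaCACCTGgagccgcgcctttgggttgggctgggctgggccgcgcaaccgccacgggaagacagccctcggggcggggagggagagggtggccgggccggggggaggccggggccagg
DSP (chr6:7541421-7541670, plus strand): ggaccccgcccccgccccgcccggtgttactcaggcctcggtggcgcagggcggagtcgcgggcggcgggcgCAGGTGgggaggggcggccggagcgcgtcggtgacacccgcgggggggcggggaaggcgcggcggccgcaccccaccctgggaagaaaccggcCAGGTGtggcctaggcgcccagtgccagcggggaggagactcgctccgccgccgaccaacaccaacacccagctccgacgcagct

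Levels are the log2 values deposited for each array, and a difference is the first group minus the second on that scale. A difference passed at an adjusted p under 0.05 in a limma fit of all 16 arrays, with Benjamini-Hochberg adjustment across all 11963 genes. No label tells whether paired arrays stand for separate cultures; p-values then measure only how these arrays vary, which can be technical variation, and the number of arrays limits the precision. Arrays of the same group correlated at 0.994 to 0.998. The arrays of the groups MDAMB231 EV and LM24175 RECK differed from each other by a median of 0.170 and 0.152 (absolute log2 difference), against 0.0816 to 0.113 in the other groups, and by 0.246 and 0.196 over the members. Set against the arrays of the other arm of the line, MDAMB231 EV replicate 1 differed by 0.163 and 0.180 and replicate 2 by 0.108 and 0.130, and LM24175 RECK replicate 1 by 0.164 and 0.168 and replicate 2 by 0.138 and 0.153. Replicate 1 of both groups is treated below as the pair of arrays that stand apart, less clearly so for LM24175, and results that rest on it are given without it. The lower quartile of an array, over all its probe sets, serves as a mark of dim levels: a member below it on every array of 1 side has a difference whose size is not resolved, and its fold is given as a lower bound with that side set to the quartile. RECK itself went against the siRNA labels: its best-detected probe set read 6.07 and 5.52 on the Hs343T arrays labelled siSCR and 11.31 and 11.24 on those labelled siRECK. In Hs606T it read 8.74 and 8.65 against 11.17 and 11.02. With the construct RECK did not pass in MDAMB231 (difference 0.03; adjusted p = 0.962) or LM24175 (difference -0.42; adjusted p = 0.154). It read 7.74 and 7.78 with empty vector and 7.78 and 7.80 with the construct in MDAMB231. In LM24175 it read 7.96 and 8.04 against 7.39 and 7.76, so no rise in measured RECK went with the construct. The siRNA arms are therefore named by their labels, and so is each direction drawn from them. The arrays labelled siSCR serve below as the control arms of Hs343T and Hs606T, so the comparisons of lines rest on the arrays with less RECK. Were the labels exchanged, these would be the treated arrays, which cannot be told here. Between the arms of Hs343T 16 members passed, and 2 in Hs606T. In bulk RNA, fewer cells of a kind and less RNA per cell cannot be told apart. Where arrays are said not to overlap, this is a description. With 2 arrays a group it is common without any difference, and its share over all genes is not given, so it adds no support to a result.

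**Figure D1:**
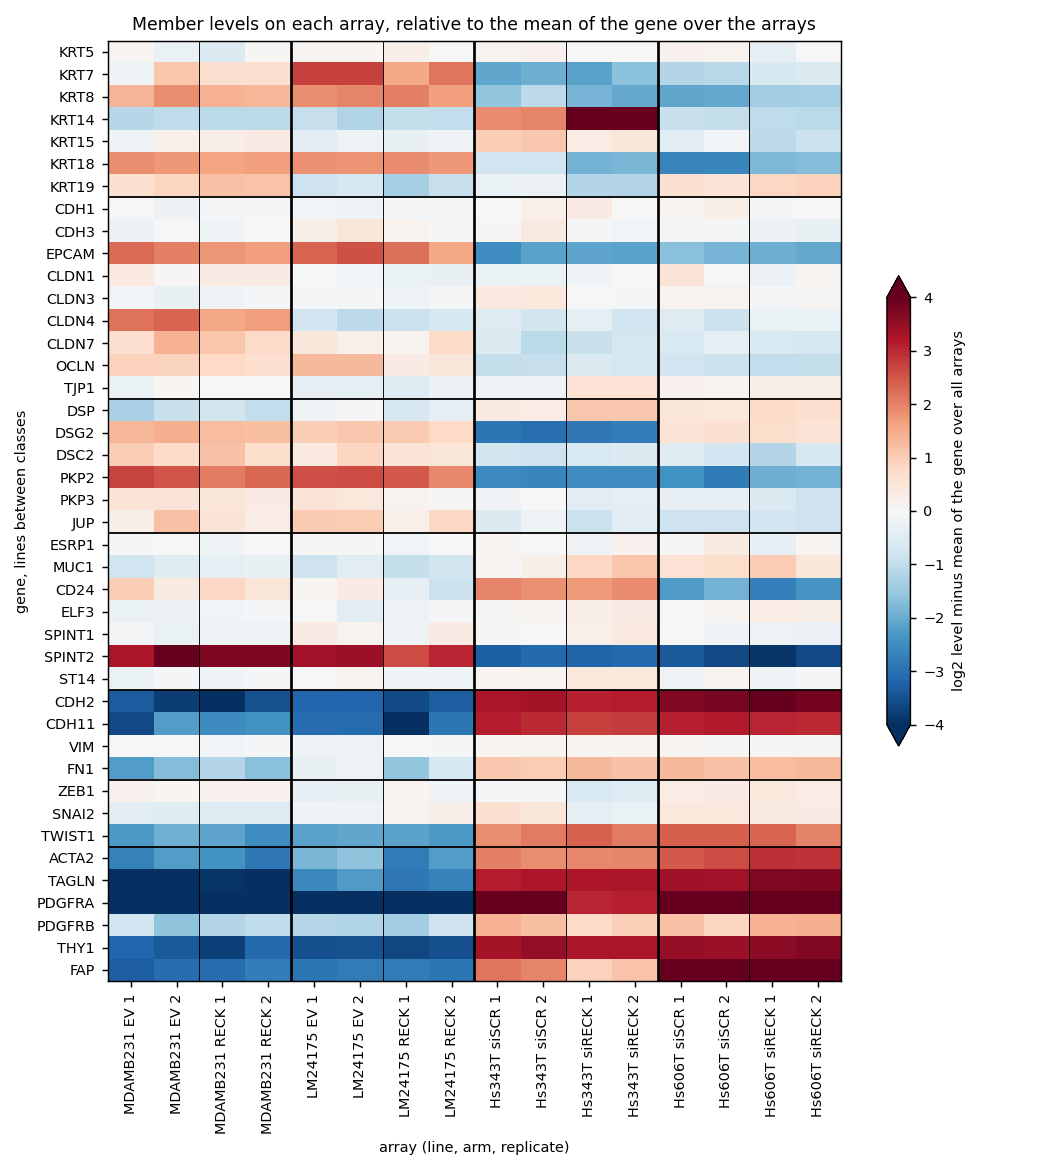
Level of each of the 42 members (rows, by class) on each of the 16 arrays (columns), as the log2 level minus the gene's mean over the arrays, with colours clipped at -4 and 4. The Hs343T and Hs606T arrays are high and the MDAMB231 and LM24175 arrays low for the fibroblast genes, while SPINT2, PKP2 and EPCAM show the reverse, and KRT14 and CD24 stand out in Hs343T.

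Among the comparisons made, the members passed most often between the control arms of the invasive and the poorly invasive lines. The invasive pair expressed keratins KRT7, KRT8 and KRT18, the surface protein EPCAM, the desmosome gene PKP2 and the protease inhibitor SPINT2 at far higher levels than the poorly invasive pair. Every mesenchymal member was lower in the invasive pair. Of the 42 members 35 passed, 14 higher and 21 lower in the invasive lines, at a background of 72.9% of all genes tested (34.2% higher and 38.8% lower), so that 83.3% of members stands against a share that was already large. The median difference was -0.18 over the members and -0.08 over all genes. The 29 epithelial members divided into 14 higher and 8 lower, and the 13 mesenchymal members were 13 lower, with a median difference of -4.32. Each side of this comparison is 2 lines, of which MDAMB231 and LM24175 are related, and vector against siRNA runs with the lines, so these cannot be told apart. The errors are between arrays and not between lines.

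Of the 7 keratins, 3 were higher and 2 lower in the invasive lines. KRT18, the acidic filament protein of simple epithelia, read 12.83 and 12.70 in MDAMB231, 12.78 and 12.78 in LM24175, 10.20 and 10.17 in Hs343T, and 8.34 and 8.35 in Hs606T. All invasive arrays lay above all others, an 11.4-fold difference (95% interval 10.4 to 12.4; adjusted p = 1.09e-13). Its partner KRT8 read 9.50 to 10.10 in the invasive lines and 6.08 to 7.11 in the others, a 10.9-fold difference (adjusted p = 1.93e-10). KRT8 and KRT18 were each read only by probe sets whose design allows cross-hybridisation.

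KRT7, a further simple-epithelium keratin, read 7.73 and 9.05 in MDAMB231, 10.69 and 10.68 in LM24175, 5.87 and 6.01 in Hs343T, and 6.78 and 6.84 in Hs606T. The groups did not overlap, although the arrays of MDAMB231 lay far apart, and the difference was 3.16 (SE 0.23; adjusted p = 8.78e-08). A further KRT7 probe set differed by -0.07 and did not pass when tested alone (adjusted p = 0.487). KRT14, a basal keratin, was at least 1.63-fold lower (adjusted p = 4.77e-10), but only Hs343T had it: its arrays read 6.60 and 6.64, against 3.49 to 3.80 in the control arms of the other lines, which is below the lower quartile over all probe sets on each. KRT15 was lower by a difference of -0.54 (adjusted p = 0.000464), and KRT19 did not pass (difference -0.18; adjusted p = 0.0718).

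Among cadherins, EPCAM and tight junction genes, 4 of 9 were higher and 3 lower. EPCAM, the epithelial adhesion molecule used to sort carcinoma cells, read 8.70 and 8.45 in MDAMB231, 8.74 and 8.96 in LM24175, 3.92 and 4.28 in Hs343T, and 4.76 and 4.57 in Hs606T. Both Hs343T arrays lay below the lower quartile of their array and the Hs606T arrays about at it, and the difference was 4.32 (SE 0.13; adjusted p = 2.35e-11). OCLN, which encodes the tight junction protein occludin, read 5.63 to 6.02 in the invasive lines and 3.76 to 3.97 in the others, below the lower quartile (at least 2.27-fold higher; adjusted p = 1.44e-11). The claudin CLDN7 was higher by 1.35 (adjusted p = 2.74e-05).

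CLDN4, another claudin, was higher by 1.34 (adjusted p = 2.53e-07), yet this came from MDAMB231 alone, where it read 8.54 and 8.68. It read 5.60 and 5.30 in LM24175 and 5.50 to 5.85 in Hs343T and Hs606T, so the groups overlapped. CDH1, which encodes E-cadherin, lay below the lower quartile of every one of the 16 arrays, at 3.75 to 4.31. Its small difference of -0.26 (adjusted p = 0.0196) sits in that range, and the groups overlapped. CLDN3 (difference -0.41; adjusted p = 5.1e-05) and the scaffold gene TJP1 (difference -0.22; adjusted p = 0.0302) were the others that were lower.

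Desmosome genes were 5 higher and 1 lower of 6. PKP2, the plaque protein plakophilin, read 8.61 to 8.81 in the invasive lines and 3.27 to 3.67 in the others, where it lay below the lower quartile, so that it was at least 16.6-fold higher (adjusted p = 1.69e-12), while a further PKP2 probe set differed by -0.19 (adjusted p = 0.1). DSG2, a desmosomal cadherin, read 11.74 and 11.85 in MDAMB231, 11.38 and 11.49 in LM24175, 7.52 and 7.38 in Hs343T, and 10.96 and 11.02 in Hs606T. The invasive arrays were the higher ones (difference 2.40; adjusted p = 1.86e-11), but Hs606T lay within 1 unit of them and Hs343T well below.

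DSC2 (at least 1.24-fold, being below the lower quartile in the Hs lines; adjusted p = 1.5e-06), JUP (1.47; adjusted p = 1.96e-05) and PKP3 (0.71; adjusted p = 1.56e-06) were the other desmosome genes that were higher. DSP, the plakin that ties desmosomes to keratin, went the other way, with levels of 9.45 and 9.86 in MDAMB231, 10.56 and 10.65 in LM24175, and 11.02 to 11.22 in the poorly invasive lines. It was 1.99-fold lower in the invasive pair (95% interval 1.73 to 2.30; adjusted p = 1.12e-06). For PKP3 a further probe set had the opposite sign and did not pass when tested alone. DSC2 was read by a probe set whose design allows cross-hybridisation. Its further probe set read 4.25 and 5.09 in MDAMB231, but 3.77 and 3.78 in LM24175, which is within the 3.64 to 3.89 of the Hs lines. Among the surface and protease genes, 2 of 7 were higher and 2 lower.

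SPINT2, an inhibitor of membrane-bound serine proteases, had the largest difference of the epithelial members: it read 11.74 and 12.45 in MDAMB231, 11.84 and 11.89 in LM24175, 5.22 and 5.38 in Hs343T, and 5.13 and 4.88 in Hs606T. This is a 114-fold difference (95% interval 91.2 to 142; adjusted p = 1.07e-12) with no overlap. CD24, a surface glycoprotein, was higher by 0.53 (adjusted p = 0.0123) with overlapping groups, because Hs343T read 8.79 and 8.68 and Hs606T 4.58 and 4.93 around the 6.91 to 7.83 of the invasive lines. The mucin MUC1 was lower by a difference of -1.04 (adjusted p = 2.18e-05), as was the transcription factor ELF3 (-0.30; adjusted p = 0.00708). ESRP1, the splicing regulator of epithelial cells, was below the lower quartile on all 16 arrays.

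**Figure D2:**
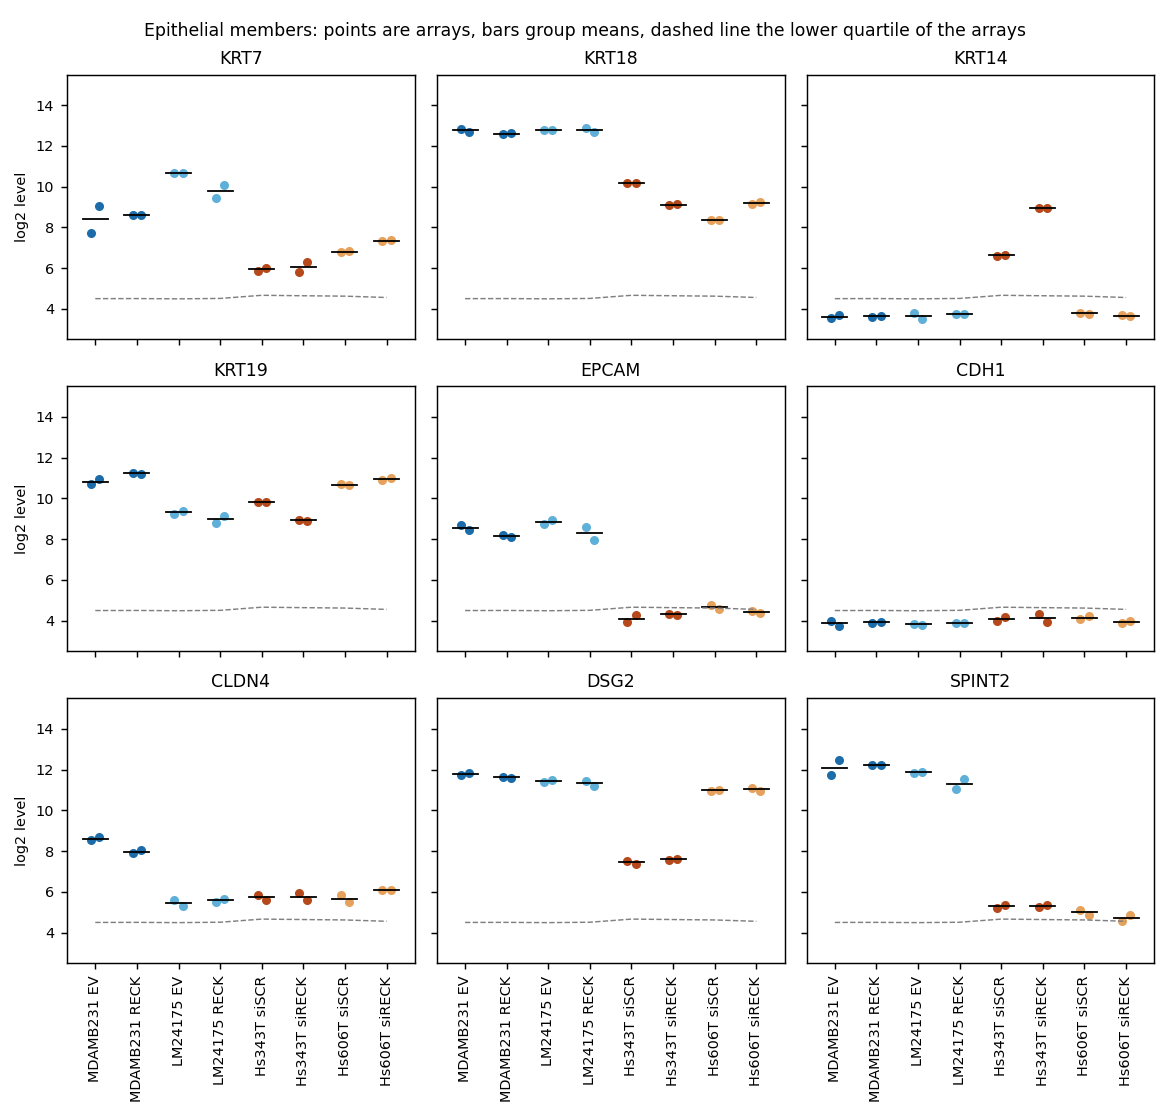
Log2 level (vertical axis) of 9 epithelial members in the 8 groups (horizontal axis), with a point per array, a bar at the group mean and a dashed line at the arrays' lower quartile over all probe sets. EPCAM and SPINT2 separate the invasive lines from the others, CDH1 stays below the dashed line throughout, and KRT14 is above it only in Hs343T.

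All 13 mesenchymal members were lower in the invasive lines. CDH2, which encodes N-cadherin, read 5.13 and 4.70 in MDAMB231, 5.28 and 5.31 in LM24175, 11.75 and 11.79 in Hs343T, and 12.17 and 12.26 in Hs606T, and was 118-fold lower in the invasive pair (95% interval 89.5 to 156; adjusted p = 7.73e-12). The cadherin of mesenchyme CDH11 read 5.54 to 6.90 against 12.14 to 12.32 (difference -6.10; adjusted p = 8.6e-10). FN1, fibronectin, read 10.89 and 11.39 in MDAMB231, 12.84 and 12.92 in LM24175 and 14.16 to 14.44 in the poorly invasive lines (difference -2.27; adjusted p = 1.11e-07). These groups did not overlap. VIM, which encodes vimentin, read 14.16 to 14.38 in the invasive lines and 14.43 to 14.50 in the others, so the lines shared a high level of it and the difference of -0.18 (adjusted p = 0.00402) was slight.

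The EMT transcription factors were all 3 lower, by very different amounts. TWIST1 read 3.78 to 4.14 in the invasive lines, under the lower quartile there, and 7.93 to 8.46 in the others (at least 13.4-fold lower; adjusted p = 8.74e-12). SNAI2, also called Slug, read 10.01 to 10.38 against 10.93 to 11.12 (difference -0.80; adjusted p = 4.63e-08). ZEB1 read 10.48 to 10.97 against 10.73 to 11.13, overlapping, and its difference of -0.22 (adjusted p = 0.00855) was matched in sign by 1 further probe set and opposed by another that was higher by 0.55 when tested alone (adjusted p = 0.0045).

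All 6 fibroblast and contractile genes were lower. PDGFRA, a growth factor receptor of fibroblasts, read 3.72 and 3.35 in MDAMB231, 4.0 and 4.04 in LM24175, 12.08 and 12.03 in Hs343T, and 12.82 and 12.86 in Hs606T. The invasive arrays lay below their lower quartile, and PDGFRA was at least 248-fold lower there (adjusted p = 1.41e-15). FAP, also below the lower quartile on the invasive arrays, was at least 62.1-fold lower. The differences were -6.82 for the surface protein THY1, -6.59 for the actin-binding protein TAGLN, -4.32 for smooth muscle actin ACTA2 and -2.34 for PDGFRB. In none of these did the groups overlap. A further ACTA2 probe set differed by 0.12 and did not pass (adjusted p = 0.195).

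The labelled tissue is breast and the labelled source a breast cancer line. CDH1 and ESRP1 were low in all 4 lines. In Hs343T and Hs606T EPCAM was low too, and the fibroblast genes were high. OCLN, DSC2 and PKP2 lay below the lower quartile on every array of these lines, and SPINT2 read 4.88 to 5.38. Some other epithelial members were not low: DSP and MUC1 were higher than in the invasive lines, and KRT19 read 9.84 to 10.70. CD24 and KRT14 were highest in Hs343T. TJP1 and ELF3 were higher than in the invasive lines by small differences (-0.22 and -0.30, invasive minus poorly invasive), and both calls ended in some alternatives. Of 18 further fibroblast matrix genes 18 were lower in the invasive lines, led by the collagen COL3A1 (-10.16), COL1A2 (-9.70), the matricellular gene POSTN (-9.50) and MFAP5 (-8.06). Of 11 smooth muscle and contractile genes 10 were lower, among them TPM2 (-6.14) and CNN1 (-3.65), and 1 was higher. Of 13 further transcription factors of epithelial and mesenchymal cells, 7 were lower, including TCF4 (-5.48) and PRRX1 (-3.59), and 3 higher, including KLF4 (1.48) and KLF5 (1.47). Further junction and polarity genes gave 7 higher, including MYO5C (4.49), CXADR (3.48), AP1M2 (2.17) and PPL (1.23), and 8 lower of 19.

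Of 11 luminal breast genes 3 were higher, including GATA3 (3.36) and AGR2 (3.19), and 4 lower. None of 7 further keratins was higher and 4 were lower, the largest being KRT13 (-0.54). Lists for cells that do not belong in a line showed 6 of 8 leukocyte genes passing, 2 higher, of which LAPTM5 differed by 6.5 and LYZ by 0.94. The summed level of this list was 10.81 to 12.18 on the invasive and 7.84 to 8.20 on the other arrays, 2 of its 8 genes lay below the lower quartile on every array, and its part in the results was not tested. The pan-leukocyte gene PTPRC was lower in the invasive lines (-0.53). Endothelial genes gave 1 higher and 3 lower of 7, adipocyte genes 1 and 1 of 5, and melanocyte and Schwann cell genes 1 and 3 of 6, led by MITF (1.64).

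Without single arrays, 3 of the 35 calls ended. CDH1 ended without replicate 2 of any of the 4 control groups (adjusted p up to 0.0807), and TJP1 without MDAMB231 EV replicate 1, LM24175 EV replicate 2, Hs343T siSCR replicate 1 or either Hs606T siSCR array (up to 0.123). CD24 ended without MDAMB231 EV replicate 1 (adjusted p = 0.057) or Hs606T siSCR replicate 1 (adjusted p = 0.0504). With quantile normalization CDH1 (adjusted p = 0.201) and ELF3 (adjusted p = 0.0782) ended, and with the mean of all probe sets CDH1 (adjusted p = 0.0757) and ZEB1 (adjusted p = 0.114).

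**Figure D3:**
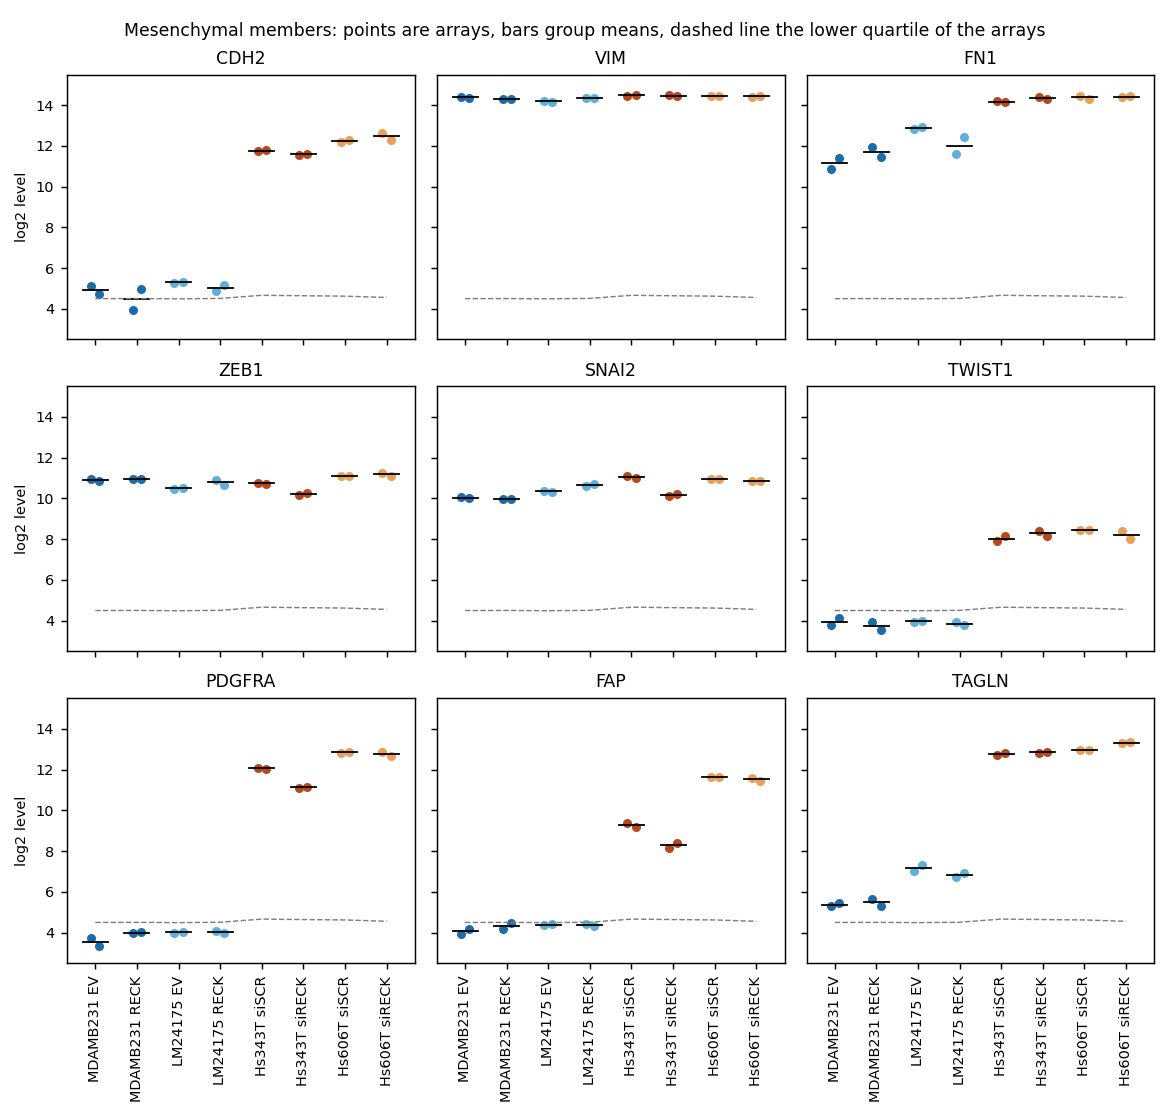
Log2 level (vertical axis) of 9 mesenchymal members in the 8 groups (horizontal axis), with a point per array, a bar at the group mean and a dashed line at the arrays' lower quartile over all probe sets. CDH2, TWIST1, PDGFRA, FAP and TAGLN are high only in Hs343T and Hs606T, VIM is near 14 in every group, and FN1 is lowest in MDAMB231.

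LM24175 and MDAMB231 were compared through their empty-vector arms, which asks what sets the lung-metastatic derivative apart. LM24175 had more KRT7, FN1 and TAGLN and less CLDN4 and KRT19. Of 42 members 13 passed, 9 higher and 4 lower in LM24175, at a background of 20.8% (9.87% higher and 10.9% lower), and the median difference was 0.02 over members and -0.01 over all genes. Of the 29 epithelial members 4 were higher and 3 lower. Of the 13 mesenchymal ones 5 were higher and 1 lower.

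KRT7, on the arrays given above, was 4.89-fold higher in LM24175 (95% interval 2.98 to 8.02; adjusted p = 0.000394). This size rests on the MDAMB231 arrays: the difference of 2.29 was 1.63 without MDAMB231 EV replicate 1. KRT19, the smallest keratin, went the other way, with 10.70 and 10.96 in MDAMB231 and 9.26 and 9.39 in LM24175 (difference -1.51; adjusted p = 6.14e-06). CLDN4 was 8.94-fold lower in LM24175 (95% interval 7.08 to 11.3; adjusted p = 1.16e-07). None of these 3 overlapped between the lines. KRT8, KRT18 and EPCAM did not pass, with differences of 0.31, 0.01 and 0.28. DSP was higher by 0.95 (adjusted p = 0.000377) and OCLN by 0.38 (adjusted p = 0.0052).

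On the mesenchymal side, FN1 was 3.36-fold higher in LM24175 (95% interval 2.33 to 4.83; adjusted p = 0.000306). TAGLN, an early marker of contractile cells, read 5.30 and 5.45 in MDAMB231 and 7.03 and 7.33 in LM24175, a 3.48-fold difference (95% interval 2.87 to 4.23; adjusted p = 2.51e-06). ACTA2 was higher by 0.77 (adjusted p = 0.0177), SNAI2 by 0.31 (adjusted p = 0.0131), and ZEB1 was lower by a difference of -0.42 (adjusted p = 0.00619). PDGFRA passed with 0.49 (adjusted p = 0.00865) from levels below the lower quartile on all of these arrays, but its other 2 probe sets had the opposite sign and the mean of all probe sets did not pass (0.13; adjusted p = 0.319). ACTA2 too has a probe set of opposite sign and did not pass with that mean (0.36; adjusted p = 0.0619). CDH3, which encodes P-cadherin, was at least 1.21-fold higher (adjusted p = 0.0161), being below the lower quartile in MDAMB231, and DSG2 was lower by a difference of -0.36 (adjusted p = 0.0224).

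Fibroblast matrix genes were 8 higher and 0 lower of 18 in LM24175, led by SPARC (7.45), COL1A1 (3.21), COL6A3 (2.23) and FBLN1 (1.96). Smooth muscle and contractile genes were 5 higher and 0 lower of 11, led by the actin ACTG2 (2.25). Of the 13 further transcription factors, PRRX1 (0.94) and ZEB2 (0.80) were higher and TCF4 (-2.08) and EHF (-1.32) lower. Of 19 further junction and polarity genes 2 were higher and 1 was lower.

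Without single arrays of these lines 6 of the 13 calls ended. CDH3 and ACTA2 ended without MDAMB231 EV replicate 1 (adjusted p = 0.0998 and 0.139) or LM24175 EV replicate 2 (0.152 and 0.131), and DSG2 without either LM24175 EV array or MDAMB231 EV replicate 2 (up to 0.153). PDGFRA ended without replicate 2 of either group (up to 0.064), SNAI2 without either LM24175 EV array (up to 0.0959) and ZEB1 without LM24175 EV replicate 1 (adjusted p = 0.0503). Without the pair of arrays that stand apart, CLDN7 (-1.05), CDH11 (-0.82), SPINT2 (-0.58), KRT15 (-0.53), TJP1 (-0.43), SPINT1 (0.50) and PDGFRB (0.45) passed as well.

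Hs606T and Hs343T were compared through their siSCR arms. Hs606T had far more DSG2 and FAP, and far less CD24, KRT14 and KRT18. Of 42 members 15 passed, 9 higher and 6 lower in Hs606T, at a background of 36.8% (18.4% higher and 18.5% lower), so members passed about as often as other genes. The median difference was 0.08 over members and -0.05 over all genes. Keratins passed in 5 of 7, with 1 higher and 4 lower, and the mesenchymal members in 4 of 13, all higher.

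DSG2, on the arrays given above, was 11.7-fold higher in Hs606T (95% interval 10 to 13.6; adjusted p = 4.67e-10). CD24 was 15.7-fold lower (95% interval 11.1 to 22.4; adjusted p = 1.23e-07). KRT14 was at least 4.01-fold lower (adjusted p = 1.08e-09), at a level below the lower quartile of the Hs606T arrays. KRT18 differed by -1.84 (adjusted p = 1.21e-08), KRT15 by -1.30 (adjusted p = 2.51e-05) and KRT8 by -0.75 (adjusted p = 0.00705). KRT19 was higher, with 9.84 and 9.85 in Hs343T and 10.70 and 10.65 in Hs606T (difference 0.83; adjusted p = 0.000191). KRT7, at 5.87 and 6.01 in Hs343T and 6.78 and 6.84 in Hs606T, did not pass (difference 0.87; adjusted p = 0.0549). It passed without either MDAMB231 EV array (adjusted p = 0.00353) and without the pair of arrays that stand apart (adjusted p = 0.000758).

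FAP, a protease of activated fibroblasts, read 9.36 and 9.18 in Hs343T and 11.62 and 11.65 in Hs606T, a 5.15-fold difference (95% interval 4.27 to 6.21; adjusted p = 5.4e-08). PDGFRA was higher by 0.78 (adjusted p = 0.000164), ACTA2 by 0.58 (adjusted p = 0.0391) and ZEB1 by 0.36 (adjusted p = 0.00773). EPCAM (at least 1.003-fold; adjusted p = 0.0306), CLDN1 (at least 1.11-fold; adjusted p = 0.018) and TJP1 (0.33; adjusted p = 0.0446) were higher, and CLDN3 was lower (-0.28; adjusted p = 0.0218). The EPCAM and CLDN1 levels lay below the lower quartile on both Hs343T arrays and near it in Hs606T, so the sizes are not resolved.

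Fibroblast matrix genes were 8 higher and 0 lower of 18 in Hs606T, led by FBLN1 (2.62), TNC (2.58) and POSTN (2.16). Contractile genes were 3 higher, led by CNN1 (2.68) and MYLK (1.44), and 1 lower of 11, and KLF4 was lower (-2.13) and KLF5 higher (0.71) among the further transcription factors. Without single arrays, 6 of the 15 calls ended: KRT8 without Hs343T siSCR replicate 2 (adjusted p = 0.0842), EPCAM without Hs343T siSCR replicate 1 or either Hs606T siSCR array (up to 0.218), and CLDN1 without either Hs343T siSCR array or Hs606T siSCR replicate 1 (up to 0.198). CLDN3, TJP1 and ACTA2 ended without any of the 4 arrays compared (up to 0.101, 0.186 and 0.168), and TJP1 and ACTA2 also without arrays of other groups. TJP1 ended too with quantile normalization (adjusted p = 0.0859) or centring (adjusted p = 0.0519), and CLDN3 with its probe set that does not cross-hybridise (adjusted p = 0.754).

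**Figure D4:**
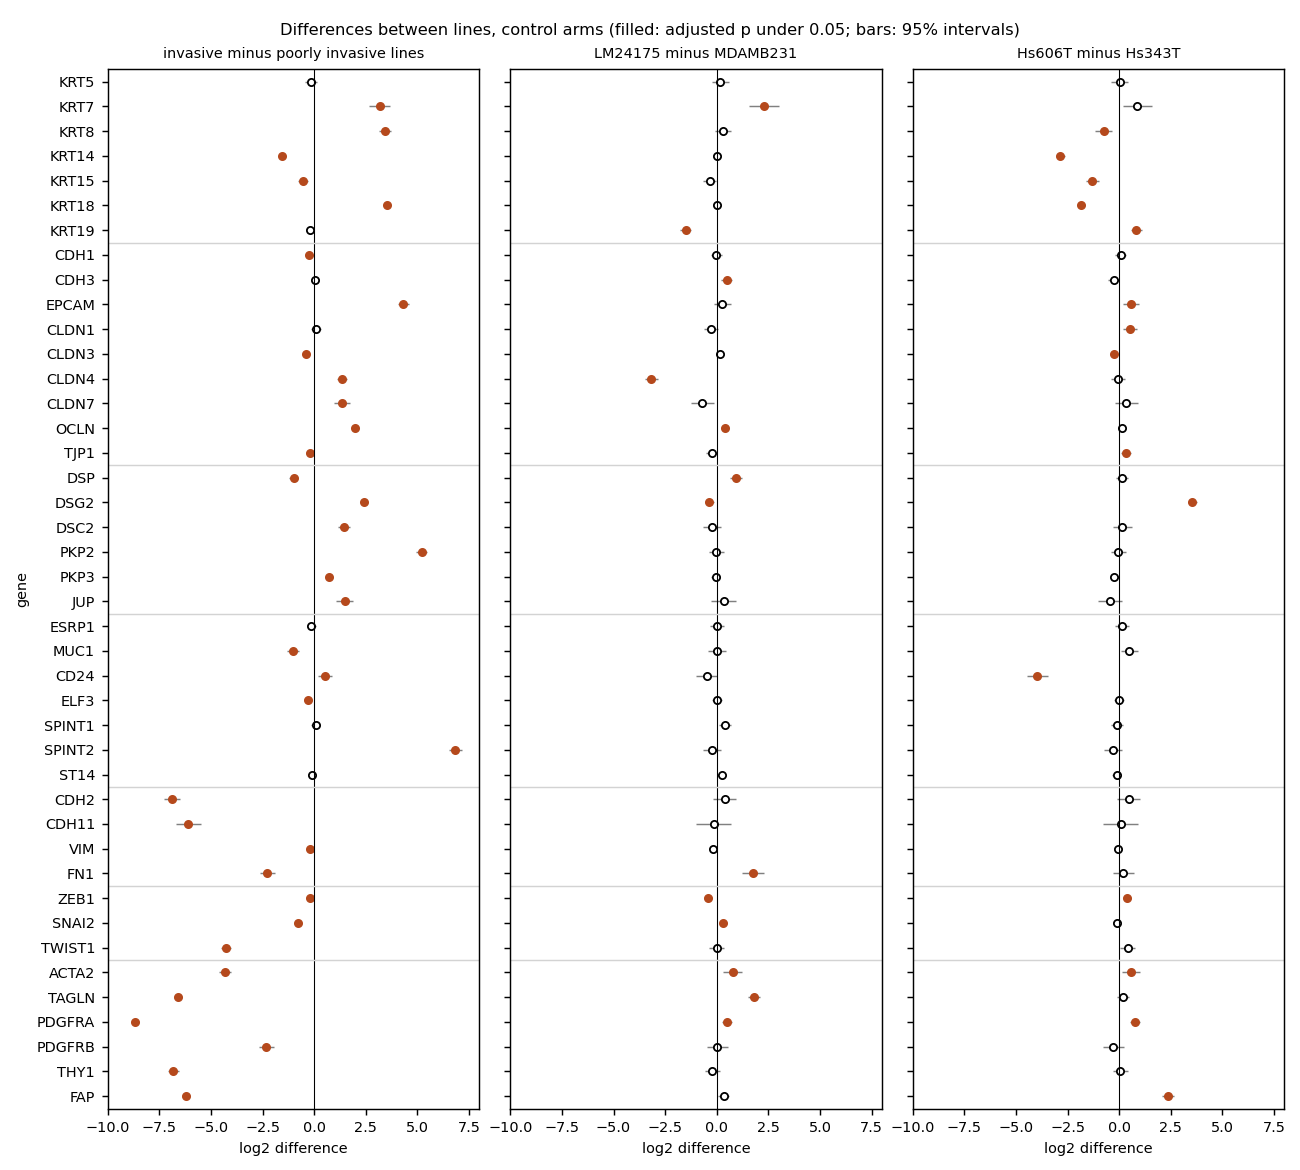
Log2 difference of each of the 42 members in the control arms (horizontal axes) for the invasive against the poorly invasive lines, LM24175 against MDAMB231, and Hs606T against Hs343T, with 95% intervals and filled points where the adjusted p was under 0.05. The mesenchymal members lie left of 0 throughout the first panel, and the largest differences of the other panels are CLDN4 and KRT7, and CD24 and DSG2.

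The RECK construct was compared with the empty vector within each invasive line, where no rise of the measured RECK level passed. In MDAMB231 no member passed in limma, at a background of 0.276% of all genes (0.226% higher and 0.0502% lower). An unadjusted p under 0.05 was seen for 7 of 42, to which that background does not apply. The share of all genes at the unadjusted threshold is not given, here or beside later unadjusted counts, so no excess can be read from them. Differences ran from -0.65 for CLDN4 (adjusted p = 0.123) to 0.57 for FN1 (adjusted p = 0.394). CLDN4 read 8.54 and 8.68 with empty vector and 7.89 and 8.04 with the construct. The difference of PDGFRA was 0.65 without MDAMB231 EV replicate 1, and that of KRT19 0.54 without MDAMB231 EV replicate 2. For CDH2 it was -0.98 without MDAMB231 RECK replicate 2. Each of these rests on a single array in 1 arm. PDGFRA lay below the lower quartile on every MDAMB231 array, so the size of its difference is not resolved. In the further lists the genes that passed were FSTL1 among 18 fibroblast matrix genes, higher by 0.58, and SPDEF among 11 luminal breast genes, higher by 0.61.

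In LM24175 with the construct, 4 of 42 members passed, 1 higher and 3 lower, at a background of 6.70% (3.44% higher and 3.27% lower). The median difference was -0.11 over members and 0.00 over all genes, and 31 of the 42 lay below 0, beside 5946 of the 11963 genes. OCLN read 6.01 and 6.02 with empty vector and 5.06 and 5.17 with the construct, and fell 1.86-fold (95% interval 1.65 to 2.10; adjusted p = 0.000186). With the construct it lay below both MDAMB231 arms, which read 5.40 to 5.64. ACTA2, at 6.88 and 7.10 against 5.91 and 6.47, fell by 0.80 (adjusted p = 0.036), and PKP3, at 7.26 and 7.15 against 6.87 and 6.79, fell by 0.37 (adjusted p = 0.0465). SNAI2, at 10.38 and 10.32 against 10.61 and 10.73, rose by 0.32 (adjusted p = 0.0322). No arrays overlapped in these 4 genes.

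FN1 (-0.88; adjusted p = 0.0508), CD24 (-0.80; adjusted p = 0.0638) and KRT7 (-0.91; adjusted p = 0.135) did not pass. All 3, and SPINT2 (-0.58), passed without either MDAMB231 EV array (adjusted p = 0.0358, 0.0304, 0.0132 and 0.0372), which brings the count to 8. For FN1 the arrays with the construct read 11.58 and 12.43, and for KRT7 9.46 and 10.08, and replicate 1, which stands apart, was the lower one in both. Without it the members that passed in addition were EPCAM (-0.87; adjusted p = 0.0157) and PKP2 (-0.68; adjusted p = 0.0365), while ACTA2 (-0.52; adjusted p = 0.258) and PKP3 (-0.41; adjusted p = 0.11) ended. Only OCLN kept its call without each array in turn. SNAI2 ended without either LM24175 EV array, LM24175 RECK replicate 2 or either Hs606T siSCR array (up to 0.216), ACTA2 without either LM24175 EV array (up to 0.247) or any Hs343T or Hs606T array, and PKP3 without any of 12 arrays (up to 0.269). PKP3 also ended with quantile normalization (adjusted p = 0.1) or centring (adjusted p = 0.0833), and a further PKP3 probe set differed by 0.22 (adjusted p = 0.708).

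Other contractile genes were 3 lower and 0 higher of 11 in LM24175 with the construct: ACTG2 (-0.98), MYL9 (-0.67) and MYLK (-0.58). Matrix genes were 3 higher, the collagens COL1A2 (2.20), COL3A1 (1.52) and COL6A3 (1.36), and 1 lower, the collagen crosslinker LOX (-1.29), of 18. Of the further transcription factors, EHF was higher (0.87), and no further junction or polarity gene of 19 passed in limma (4 had an unadjusted p under 0.05). KRT10 was the 1 of 7 further keratins that passed (0.34), and LPL the 1 of 5 adipocyte genes (-1.09).

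The difference between the LM24175 and MDAMB231 responses was tested directly, and 3 members passed, all lower in LM24175, at a background of 3.64%. They were OCLN (-0.73; adjusted p = 0.00659), KRT19 (-0.77; adjusted p = 0.0317) and FN1 (-1.44; adjusted p = 0.0399). For FN1 the construct arms differed by 0.57 in MDAMB231 and by -0.88 in LM24175, and for KRT19 by 0.41 and -0.35. Both rest on the arrays that stand apart: without that pair FN1 differed by -0.77 (adjusted p = 0.128) and KRT19 by -0.45 (adjusted p = 0.0778). KRT19 and FN1 ended without 12 and 13 of the 16 arrays taken singly (adjusted p up to 0.133 and 0.158), while OCLN kept its call without each.

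The arrays labelled siRECK and siSCR were compared within each poorly invasive line, where the measured RECK level ran opposite to the labels. In Hs343T the arrays labelled siRECK had much more KRT14 and less KRT18, KRT19, SNAI2, PDGFRA and FAP than those labelled siSCR. Of 42 members 16 passed, 6 higher and 10 lower, at a background of 29.3% (12.0% higher and 17.4% lower). The median difference was 0.01 over members and -0.06 over all genes. Epithelial members gave 6 higher and 6 lower of 29, and mesenchymal members 0 higher and 4 lower of 13.

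Keratins passed in 5 of 7. KRT14 read 6.60 and 6.64 on the arrays labelled siSCR and 8.93 and 8.93 on those labelled siRECK, a 4.94-fold difference (95% interval 4.29 to 5.69; adjusted p = 2.7e-09). KRT18 went from 10.20 and 10.17 to 9.08 and 9.13 and was 2.11-fold lower (95% interval 1.87 to 2.39; adjusted p = 7.45e-07). KRT19 went from 9.84 and 9.85 to 8.94 and 8.91 (difference -0.92; adjusted p = 9.35e-05). KRT15 (-0.64; adjusted p = 0.00504) and KRT8 (-0.64; adjusted p = 0.0221) were lower as well, and KRT10 (-0.79) was the only 1 of 7 further keratins to pass.

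Among junction genes, TJP1 went from 10.91 and 10.82 to 11.63 and 11.63 (difference 0.76; adjusted p = 0.000347). DSP went from 11.09 and 11.02 to 11.82 and 11.80 (difference 0.76; adjusted p = 0.000966). Neither overlapped. OCLN was higher by 0.29 (adjusted p = 0.0152), at levels below the lower quartile, PKP3 was lower (-0.31; adjusted p = 0.0358), and none of 19 further junction and polarity genes passed in limma (3 had an unadjusted p under 0.05). CLDN3 was lower by its cross-hybridising probe set (-0.44; adjusted p = 0.00156), while its other probe set differed by 0.05 (adjusted p = 0.862 when tested alone). The mucin MUC1 was higher by 0.80 (adjusted p = 0.00727) and the membrane protease ST14 by 0.33 (adjusted p = 0.03), although 2 further ST14 probe sets differed by -0.13 each and did not pass.

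On the mesenchymal side, SNAI2 went from 11.12 and 11 to 10.14 and 10.23, a 1.84-fold lower level (95% interval 1.63 to 2.06; adjusted p = 3.46e-06). PDGFRA went from 12.08 and 12.03 to 11.08 and 11.16 (difference -0.94; adjusted p = 4.53e-05), and FAP from 9.36 and 9.18 to 8.16 and 8.39 (difference -0.99; adjusted p = 6.29e-05). ZEB1, a repressor of epithelial genes, was lower by a difference of -0.51 (adjusted p = 0.000951), with the sign shared by all 3 of its probe sets. None of these overlapped. CDH2, CDH11, VIM and FN1 did not pass, with differences from -0.29 to 0.19. PRRX1 was lower (-1.04) and KLF4 (0.86) and ZEB2 (0.72) higher among 13 further transcription factors, POSTN (-0.73) and MFAP5 (-0.37) were lower among 18 matrix genes, and MYLK (-1.01) and DES (-0.45) were lower and CALD1 higher (0.49) among 11 contractile genes. The luminal genes XBP1 (0.76) and ERBB2 (0.35) were higher, and 1 gene each of the leukocyte, endothelial and adipocyte lists was lower: CD163 (-0.43), PECAM1 (-0.64) and CIDEC (-0.28). Their part in the results was not tested.

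Without single arrays, 6 of the 16 calls ended. KRT8 ended without replicate 2 of either arm (adjusted p up to 0.217), KRT15 without siRECK replicate 1 (adjusted p = 0.0515), and OCLN without replicate 1 of either arm (up to 0.115). MUC1 ended without siSCR replicate 1 or siRECK replicate 2 (up to 0.0697), ST14 without any of the 4 Hs343T arrays (up to 0.117), and PKP3 without any of these or either Hs606T siSCR array (up to 0.201). PKP3 also ended with quantile normalization (adjusted p = 0.0524) or centring (adjusted p = 0.0887). KRT14, KRT18, KRT19, TJP1, DSP, SNAI2, ZEB1, PDGFRA, FAP and CLDN3 kept their calls without each array in turn.

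In Hs606T 2 of 42 members passed, 1 higher and 1 lower, at a background of 1.20% (0.811% higher and 0.385% lower). The median difference was -0.08 over members and 0.00 over all genes. KRT18 went from 8.34 and 8.35 on the arrays labelled siSCR to 9.17 and 9.24 on those labelled siRECK, a 1.81-fold higher level (95% interval 1.6 to 2.05; adjusted p = 0.000167). KRT15 went from 6.46 and 6.79 to 5.85 and 6.04 (difference -0.68; adjusted p = 0.048). Neither overlapped. The KRT15 call ended without any of 14 arrays taken singly (adjusted p up to 0.349), and KRT18 kept its call without each array.

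KRT8, the partner of KRT18, went from 6.08 and 6.10 to 6.78 and 6.81 and did not pass (difference 0.70; adjusted p = 0.116), nor did PKP2, which went from 3.67 and 3.27 to 4.14 and 4.20 (0.70; adjusted p = 0.0755). Without the pair of arrays that stand apart, which belong to other lines, both passed (adjusted p = 0.0416 and 0.0177), and PKP2 passed without either LM24175 RECK array (adjusted p = 0.0226). The PKP2 levels lay below the lower quartile on every Hs606T array, so the size of its difference is not resolved. A further PKP2 probe set went the other way, from 4.988 and 4.805 to 4.591 and 4.6. All 13 mesenchymal members failed to pass, with differences from -0.24 to 0.39 and 1 of 13 at an unadjusted p under 0.05. Of the further lists, CNN1 (1.13) was the only gene to pass.

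The difference between the siRNA responses of the lines was tested directly, and 10 members passed, 7 higher and 3 lower in Hs606T, at a background of 20.4% (11.6% higher and 8.72% lower). KRT18 fell by label in Hs343T and rose in Hs606T, and the responses differed by 1.94 (SE 0.11; adjusted p = 1.97e-07). KRT14 differed by -2.41 (SE 0.13; adjusted p = 1.16e-07), and its Hs606T arrays all lay below the lower quartile. KRT8 differed by 1.34 (adjusted p = 0.00312) and KRT19 by 1.20 (adjusted p = 0.000332). The responses of SNAI2 (0.80; adjusted p = 0.000261), FAP (0.87; adjusted p = 0.00355), PDGFRA (0.84; adjusted p = 0.00236) and ZEB1 (0.58; adjusted p = 0.00654) were higher in Hs606T, where none of these genes passed by itself, than in Hs343T.

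TJP1 (-0.68; adjusted p = 0.0123) and OCLN (-0.45; adjusted p = 0.0141) were lower in the Hs606T response. The OCLN levels lay below the lower quartile on every array of both lines, so the size of its difference is not resolved. OCLN ended without Hs343T siSCR replicate 1, Hs343T siRECK replicate 1 or Hs606T siSCR replicate 1 (adjusted p up to 0.0658). By class, keratins passed in 4 of 7, cadherins, EPCAM and tight junctions in 2 of 9, desmosomes in 0 of 6, and mesenchymal members in 4 of 13. The 4 line responses do not share controls with each other, but the response differences use the same arrays as the responses, and the comparisons of lines use the same control arrays as the comparisons of arms. With the mean of all probe sets the PDGFRA response difference was 0.28 (adjusted p = 0.0983).

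**Figure D5:**
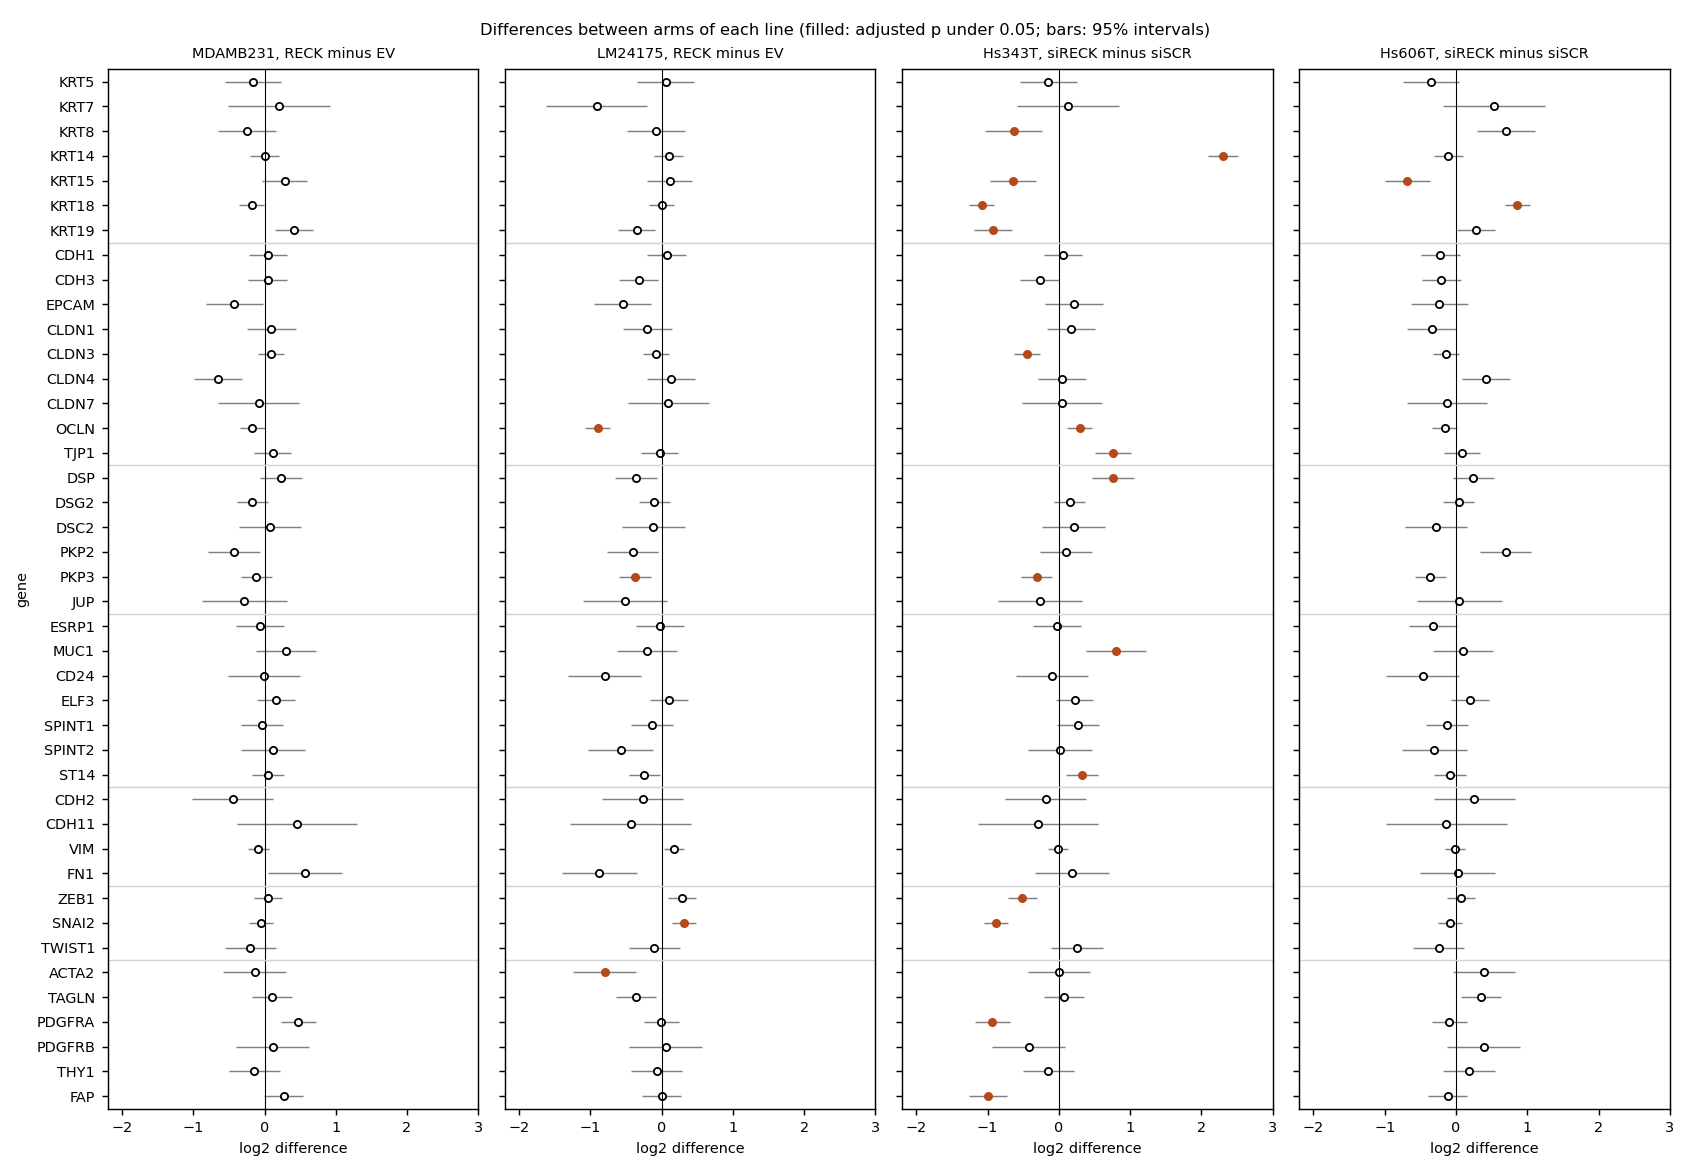
Log2 difference of each of the 42 members between the arms of each line (horizontal axes: RECK construct minus empty vector in MDAMB231 and LM24175, arrays labelled siRECK minus siSCR in Hs343T and Hs606T), with 95% intervals and filled points where the adjusted p was under 0.05. Hs343T has 16 filled points, led by KRT14 at 2.30, LM24175 has 4, Hs606T 2 and MDAMB231 none.

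Some members lie next to each other among protein-coding genes, and neighbours need not move together. KRT8 and KRT18 on chromosome 12 had differences of the same sign in Hs343T and in Hs606T, as did KRT15 and KRT19 on chromosome 17 in Hs343T, but not in Hs606T, where KRT15 was lower (-0.68) and KRT19 differed by 0.28 (adjusted p = 0.398). CLDN3 and CLDN4 on chromosome 7 differed from each other between LM24175 and MDAMB231, at 0.15 and -3.16. Of the genes with printed windows, CLDN7, OCLN and DSG2, with 4, 1 and 2 matches, were higher in the invasive lines, and DSP, with 2, was lower. These windows were picked in part by the results, so no link between matches and direction can be read from them.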

How the data were processed

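RNA of 16 samples was read on Affymetrix U133 2.0 arrays. The deposited table holds the authors' log2 values of 22277 probe sets. Partek is the tool named in the submitters' processing notes, and how it summarised and scaled the values is not given in the sources used here. No detection calls were used. The platform annotation gave 1 symbol to 19070 probe sets, several to 1043 and none to 2164. After 62 control probe sets were left out, 19064 probe sets gave 11963 genes, each read from its single-symbol probe set of highest mean level. No values were rescaled or filtered.

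All 16 arrays entered a limma 3.58.1 fit (R 4.3.3) of 8 group means, with a median residual SD of 0.129, 8 residual degrees of freedom and a prior worth 3.72. The 9 comparisons used 2-sided tests, adjusted by Benjamini and Hochberg over all genes, and 95% intervals of the moderated fit. The scripts were tested on simulated data. Replicate numbers were checked for pairing: replicate differences correlated from -0.122 to 0.486 over 28 pairs of groups. Of these 1 pair was over 0.1 and 1 under -0.1, so the numbers do not pair the arrays. The pair at 0.486 was MDAMB231 EV with LM24175 RECK, the groups whose replicate 1 stands apart. They are opposite arms, so a deviation that both share enters the difference of the construct responses. Alternatives were quantile normalization, centring, the mean of all probe sets, every probe set tested alone, leaving out cross-hybridising probe sets, leaving out dim genes (the lowest 0.25), only the arrays compared, eBayes with trend and robust, a 1.5-fold minimum, a replicate block, each array left out in turn, and both that stand apart left out. All members may be named, passing ones with values, and up to 4 passing genes of each further list per comparison. The members, lists and rules were chosen with earlier results of these data known. Figures were drawn with matplotlib 3.10.9 and numpy 2.4.6 in Python 3.11.15, tables handled with pandas 2.3.3.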

Additional observations from a re-analysis of the deposited data

Results flagged for a closer look

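The difference between the responses of 2 lines to the same treatment passed the limma test for 13 results. Between LM24175 and MDAMB231 with the RECK construct these were KRT19 (-0.77), OCLN (-0.73) and FN1 (-1.44), the response of LM24175 being the lower in each.

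Between the responses of Hs606T and Hs343T to the labelled siRECK, KRT8 (1.34), KRT18 (1.94), KRT19 (1.20), ZEB1 (0.58), SNAI2 (0.80), PDGFRA (0.84) and FAP (0.87) were higher in Hs606T. KRT14 (-2.41), OCLN (-0.45) and TJP1 (-0.68) were lower in Hs606T. OCLN lay below the lower quartile on every array of both lines and KRT14 on those of Hs606T, so these sizes are not resolved. The measured RECK level rose by 5.48 in Hs343T and by 2.40 in Hs606T on the arrays labelled siRECK, and the part of that in these differences was not tested.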

How the results depend on the processing

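Over 11 alternatives and the 16 ways to leave out 1 array, 58 of 98 passing results of single members kept their call in each that held the gene. KRT8 and KRT18 were not in the fit without cross-hybridising probe sets. KRT14, CDH1, CDH3, CLDN1, OCLN and DSC2 were not in the fit without dim genes. The members that passed numbered 33 to 36 (35 with all arrays) between the kinds of line when 1 array was left out, 8 to 15 (13) between LM24175 and MDAMB231, and 10 to 17 (15) between Hs606T and Hs343T. They numbered 0 to 1 (0) for the construct in MDAMB231, 1 to 8 (4) in LM24175, 12 to 16 (16) for the labelled siRECK in Hs343T, 1 to 2 (2) in Hs606T, 1 to 7 (3) for the construct responses and 9 to 13 (10) for the siRNA responses. With only the arrays compared the count was 6 between LM24175 and MDAMB231, 1 for the construct in LM24175 and 0 for the construct responses (limma, no member at an adjusted p under 0.05). A 1.5-fold minimum left 7 between LM24175 and MDAMB231, 9 between Hs606T and Hs343T and 2 for the construct in LM24175. Every probe set tested alone gave 1 in Hs606T and 5 for the construct responses, as did trend and robust (5). Without cross-hybridising probe sets the count in Hs606T was 1, because KRT18 was not in that fit and not because its call was lost. Without both arrays that stand apart the counts were 1 for the construct in MDAMB231, 4 in Hs606T and 16 for the siRNA responses. The sign turned once: CLDN3 in Hs343T, -0.44, was 0.051 (adjusted p = 0.853) without cross-hybridising probe sets. With the replicate block 0 of the 98 calls were lost, and the counts were 35, 14, 16, 0, 4, 16, 2, 3 and 11 in the order above. The block changed no other call named here, and replicate numbers do not pair the arrays. Centring each array moved the share of higher calls among all genes from 45.3% to 55.7% for the construct responses, from 51.2% to 61.2% for the construct in LM24175, from 40.8% to 48.8% for the labelled siRECK in Hs343T and from 57.2% to 49.5% for the siRNA responses. Causes were not tested. Levels below an array's lower quartile, such as CDH1, ESRP1 and OCLN in the Hs lines, are near what these arrays can resolve.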
